A study of Mus musculus with 6 samples.

Results

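The inhibitors of cyclin-dependent kinases (CDKs) and the retinoblastoma proteins, the genes that hold cells out of the cell cycle, were followed in cochlear sensory epithelia (CSE) of newborn and adult mice. They were 10 genes, chosen by name: Cdkn1a, Cdkn1b and Cdkn1c of the Cip/Kip family, Cdkn2a, Cdkn2b, Cdkn2c and Cdkn2d of the INK4 family, and the retinoblastoma genes Rb1, Rbl1 and Rbl2. Every probe set that the array annotation assigns to only 1 of them was taken, which gave 17 of the 45037 probe sets that are not controls. The RNA came from CSE microdissected from Swiss Webster mice at postnatal day 3 (P3) or at 8 weeks of age (adult), with 3 arrays per stage and a pool of 20 mice on each array. No treatment or altered allele is given for either stage. The P3 tissue also held the greater and lesser epithelial ridges, and the adult tissue held inner sulcus and interdental cells. Each array is a mixture of cell types, so fewer cells of a type and less RNA per cell cannot be told apart in any value given here.

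A cell enters S phase when CDKs, switched on by cyclins, phosphorylate the retinoblastoma proteins. Unphosphorylated, these proteins bind E2F transcription factors and keep the genes of DNA synthesis and mitosis silent. INK4 proteins block CDK4 and CDK6, which pair with D-type cyclins, while Cip/Kip proteins bind a wider range of cyclin-CDK complexes, those of CDK2 included. In the mammalian cochlea hair cells and supporting cells leave the cell cycle before birth, and mouse mutants of several of these genes, among them Cdkn1b, Cdkn2d and Rb1, are known for divisions of cells that otherwise stay quiescent.

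Signals are MAS5.0 intensities, a linear measure of the brightness of a probe set, and changes are log2 of adult over P3. A probe set was measured where its signal lay above the background level, the 90th percentile of 83 probe sets for odorant, vomeronasal and taste receptors, on at least 3 of the 6 arrays. The background level was between 6.29 and 34.5. P3 replicate 1 had the highest of these levels, and its ratio of 3' to 5' signal of Gapdh, a sign of shortened RNA, was 82.0 against 0.707 to 2.07 on the other 5 arrays. Without P3 replicate 1 the call of no probe set of these genes changed, and its effect on their values is given where it was large. Called means an adjusted p under 0.05 (limma, Benjamini-Hochberg over 29036 probe sets) and a difference of at least 2-fold.

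Of the 17 probe sets 13 were measured, and they covered 9 of the 10 genes. Cdkn1c alone was called, higher at P3, and no probe set was called higher in the adult. That is 7.69% of the measured probe sets of these genes. Of all 29036 measured probe sets 2109 were called, with 3.87% of the 29036 higher at P3 and 3.39% higher in adult CSE. With calls in either direction counted, the share of these genes was close to that of all measured probe sets. The signals of the stages did not overlap for 4 of the 13 (Cdkn1c, Cdkn2c and both probe sets of Rbl2), or 30.8%, which was close to the 31.1% of all measured probe sets. The same 4 had an unadjusted p under 0.05, 2 in each direction, while 23.7% of all measured probe sets did. The median change of the 13 was 0.19 on the log2 scale, and that of all measured probe sets was 0.04. Of the 12 uncalled probe sets only 2 had a 95% interval within a 2-fold change either way.

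**Figure D1:**
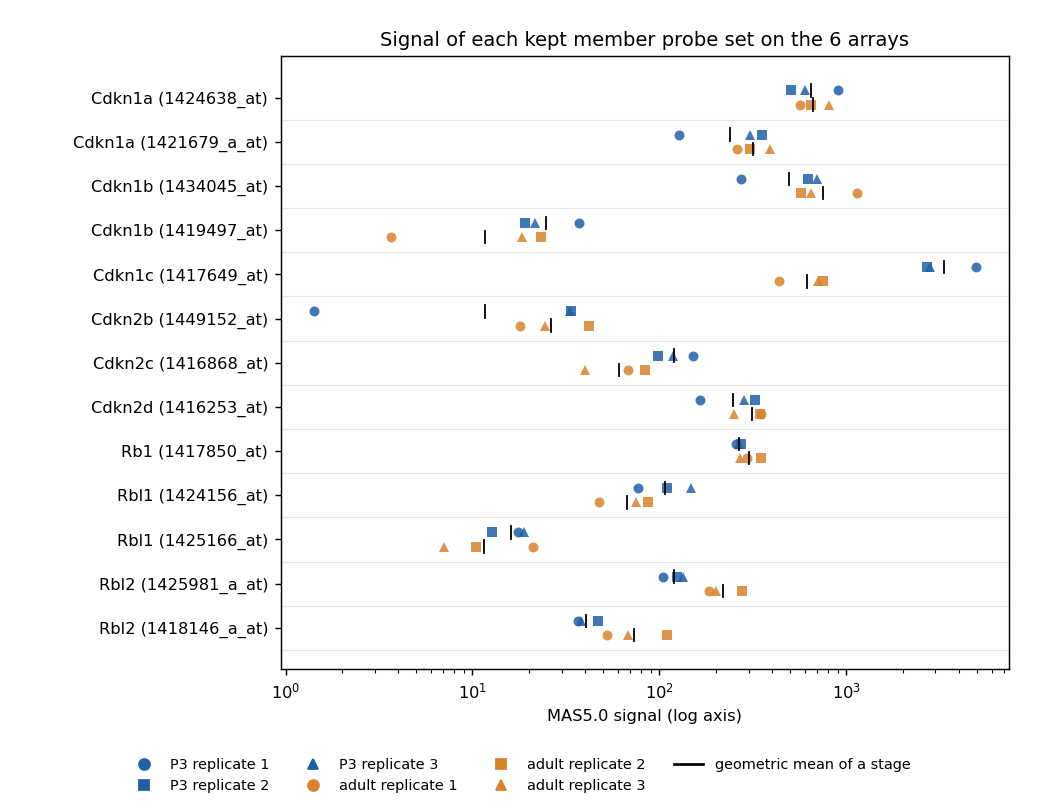
Signals of the 13 measured probe sets of the CDK inhibitors and retinoblastoma genes on each of the 6 arrays (log axis, MAS5.0 intensity). Points are single arrays, 3 at P3 and 3 adult, and short black lines are the geometric means of a stage. For Cdkn1c the P3 arrays lie between 2716 and 4928 and the adult arrays between 436 and 751, while most other probe sets overlap between the stages.

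Cdkn1c encodes p57Kip2, a Cip/Kip inhibitor that is expressed from the maternal allele in the mouse and is best known for stopping division in embryonic tissues. Its signals were 4928, 2716 and 2814 on P3 replicates 1 to 3 and 436, 751 and 705 on adult replicates 1 to 3. Every P3 array lay far above every adult array, with means of 3486 ± 1250 (SD, n = 3) and 631 ± 170 (SD, n = 3). The transcript fell by 2.45 on the log2 scale (SE 0.33, 95% interval -3.20 to -1.70), a 5.46-fold lower level in the adult, with a limma adjusted p of 0.00489. P3 replicate 1 had the highest signal, and without it the change was -2.17 (adjusted p = 0.00522). Cdkn1c was called in all 14 alternatives tried, in which its log2 change ran from -2.60 to -2.17. The adult transcript remained above the background level on all 3 arrays.

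**Figure D2:**
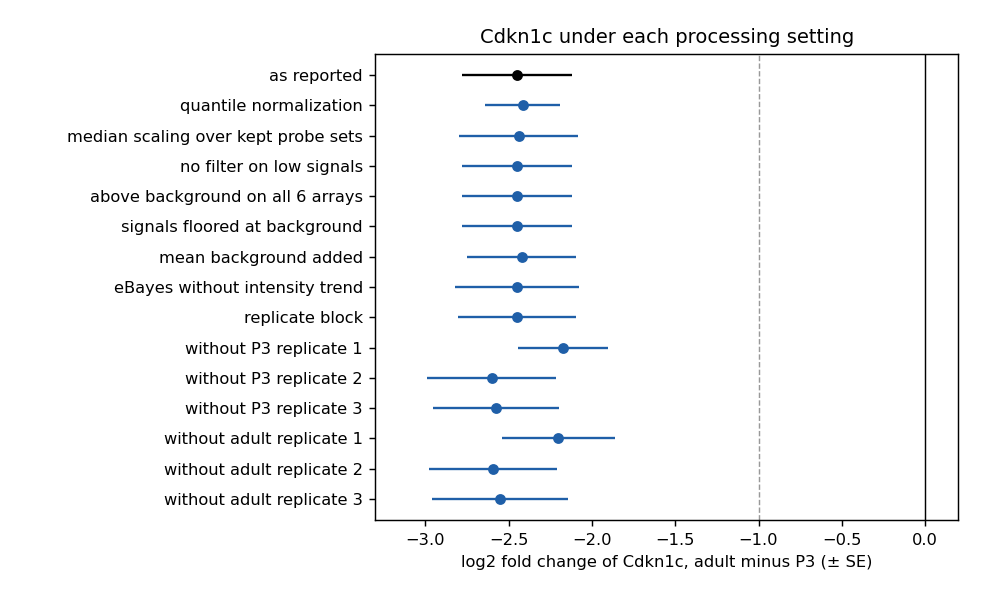
Log2 change of Cdkn1c, adult over P3, as reported and under the 14 alternatives of processing or of arrays left out. Points are the estimates with bars of 1 SE, the dashed line marks a 2-fold difference, and all points lie between -2.60 and -2.17.

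Several cell type markers differed between the stages along with Cdkn1c, and their part in its change was not tested. Of 12 supporting cell markers, all measured, 4 were called toward P3. They were Sox2 (log2 change -2.48), a transcription factor of prosensory and supporting cells, Jag1 (-2.15), Tecta (-6.49) and Tectb (-6.26). Only 1, the gap junction gene Gjb6, was called higher in the adult (log2 change 2.19). The 12 markers summed to 12730 to 20430 at P3 and 7837 to 12750 in the adult, so the stages overlapped slightly. Of 6 measured bone and cartilage markers 2 were higher at P3, the cartilage matrix genes Col2a1 and Matn1, and their summed signal was 4023 to 5382 at P3 and 794 to 1447 in the adult. Of 10 granulocyte markers 9 were higher in the adult, with a summed signal of 117 to 381 at P3 and 3833 to 17190 in the adult. Of 12 hair cell markers 9 were measured and none was called by limma, with 1 in each direction at an unadjusted p under 0.05, and Slc26a5, the motor protein of outer hair cells, was not among the measured genes. Neuron markers summed to 4537 to 5177 at P3 and 7411 to 20690 in the adult, and of 9 genes 1 was called toward P3 and 2 toward the adult.

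Neither of the other Cip/Kip genes was called. Cdkn1a encodes p21, an inhibitor that p53 induces after DNA damage. On its brighter probe set the signals were 899, 509 and 604 at P3 and 568, 644 and 805 in the adult. The stages overlapped fully, and the log2 change was 0.03 (SE 0.27, 95% interval -0.59 to 0.65, adjusted p = 0.960), so that a difference of 2-fold lies outside the interval in either direction. Without P3 replicate 1 it was 0.26. On the dimmer probe set the signals were 128, 353 and 307 at P3 and 260, 307 and 393 in the adult, with a log2 change of 0.39 (SE 0.39, adjusted p = 0.587). The 2 probe sets disagreed on P3 replicate 1, which was the highest P3 array on the first and the lowest on the second. Without that array the dimmer probe set gave a log2 change of -0.06.

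Cdkn1b encodes p27Kip1, which in the mouse cochlea marks the cells that have stopped dividing and stays on in supporting cells. The brighter probe set gave 274, 624 and 699 at P3 and 1145, 575 and 645 in the adult. The low value belonged to P3 replicate 1 and the high value to adult replicate 1, and the other 4 arrays lay between 575 and 699. The log2 change was 0.61 (SE 0.41, 95% interval -0.32 to 1.54, adjusted p = 0.411). Leaving out P3 replicate 1 gave 0.19, and leaving out adult replicate 1 gave 0.31. The dimmer probe set pointed the other way, with signals of 36.9, 19.1 and 21.6 at P3 and 3.65, 23.3 and 18.5 in the adult. Its log2 change was -1.09 (SE 0.78, 95% interval -2.87 to 0.69, limma adjusted p = 0.445), so a fall as large as that of Cdkn1c lies within the interval. The change was -0.80 without P3 replicate 1 and -0.26 when adult replicate 1 was left out. On neither probe set did the difference exceed the spread between arrays.

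Among the INK4 genes, Cdkn2c came nearest to a call. It encodes p18Ink4c, an inhibitor of CDK4 and CDK6. Its signals were 151, 97.8 and 118 at P3 and 68.0, 83.9 and 39.9 in the adult. All P3 arrays lay above all adult arrays, though by a small margin between P3 replicate 2 and adult replicate 2. The means were 122 ± 26.7 (SD, n = 3) and 63.9 ± 22.3 (SD, n = 3), the log2 change was -0.98 (SE 0.35, 95% interval -1.78 to -0.18) and the fold was 1.97, just under 2. The adjusted p was 0.134 (log2 change -0.82 without P3 replicate 1), and it ran from 0.0927 to 0.401 over the 14 alternatives.

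Cdkn2d encodes p19Ink4d, which in the mouse is needed to keep hair cells out of the cell cycle after birth. It gave signals of 165, 326 and 285 at P3 and 349, 344 and 252 in the adult. The stages overlapped, with a log2 change of 0.33 (SE 0.30, 95% interval -0.36 to 1.01, adjusted p = 0.560), and without P3 replicate 1, the lowest array, it was 0.03. Cdkn2d was above background on every array of both stages.

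Cdkn2b encodes p15Ink4b, an inhibitor that TGF-beta induces in epithelial cells. Its signals were low, 1.42, 33.7 and 33.1 at P3 and 17.9, 41.9 and 24.3 in the adult. The first of these was P3 replicate 1, below that array's background level, and the other 5 arrays were above theirs. The log2 change of 1.17 (SE 1.17, adjusted p = 0.591) turned on that array, and without it the change was -0.35.

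Cdkn2a encodes the inhibitor p16Ink4a and, from another first exon, p19Arf, which stabilises p53. Its probe set gave 10.1, 2.54 and 4.39 at P3 and 1.94, 5.33 and 0.249 in the adult. It was above background on 0 of the 6 arrays and was not tested. The signal therefore gives only a bound at both stages, and 1 probe set cannot separate the products of the gene.

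None of the retinoblastoma genes was called. Rb1, which encodes the retinoblastoma protein itself, had a nearly flat signal on its brighter probe set, with 258, 273 and 265 at P3 and 294, 348 and 271 in the adult. The P3 arrays were close together, and adult replicate 3 fell within their range. The log2 change was 0.19 (SE 0.21, 95% interval -0.28 to 0.66, adjusted p = 0.624), an interval within 2-fold in either direction. The other probe set of Rb1 was not above background on any array.

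Rbl2 encodes p130, the retinoblastoma protein that is most abundant in resting cells and that joins the MuvB complex to silence cell cycle genes. Its brighter probe set gave 104, 124 and 133 at P3 and 185, 279 and 201 in the adult. The stages did not overlap, and the means were 120 ± 14.7 (SD, n = 3) and 221 ± 50.1 (SD, n = 3). The log2 change was 0.86 (SE 0.25, 95% interval 0.29 to 1.44), a fold of 1.82, with an adjusted p of 0.0762. The dimmer probe set gave 36.6, 46.7 and 38.1 at P3 and 52.5, 110 and 68.0 in the adult, with a log2 change of 0.86 as well (SE 0.37, adjusted p = 0.199). Neither probe set passed the test or reached 2-fold, and both had the same size and direction. The first ran from 0.69 to 0.98 over the 14 alternatives and the second from 0.57 to 1.11.

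Rbl1 encodes p107, the retinoblastoma protein of dividing cells, itself an E2F target. Its brightest probe set gave 76.6, 110 and 148 at P3 and 47.3, 87.0 and 74.6 in the adult. P3 replicates 2 and 3 lay above all adult arrays, while P3 replicate 1 fell among them. The log2 change was -0.68 (SE 0.36, 95% interval -1.50 to 0.14, adjusted p = 0.297), and -0.92 without P3 replicate 1. Of the 3 other probe sets 1 was measured (log2 change -0.48, SE 0.64, adjusted p = 0.696) and the rest were above background on at most 1 array.

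**Figure D3:**
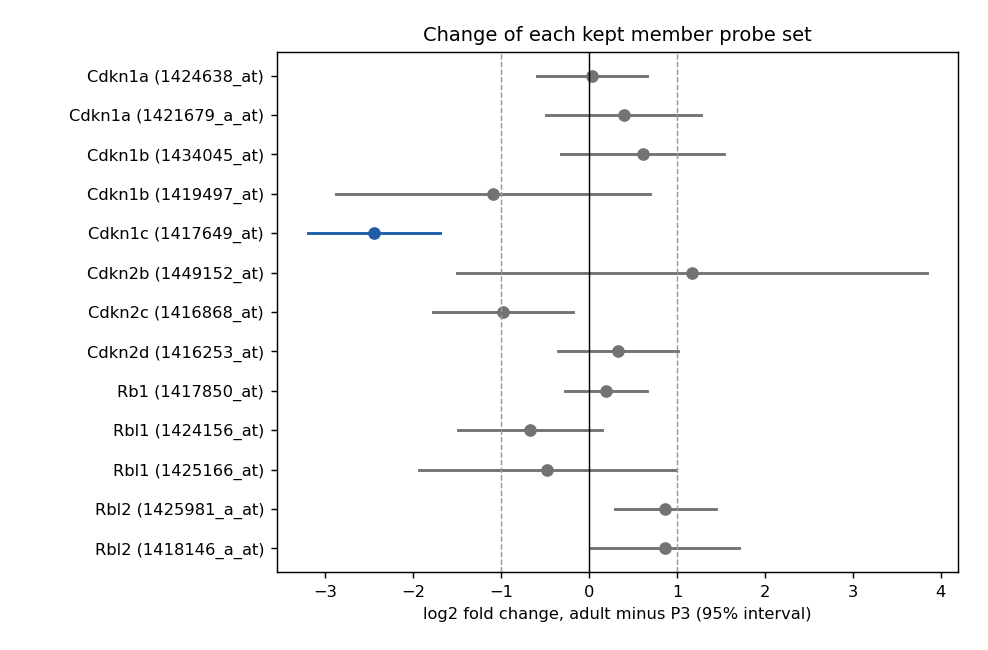
Log2 change (adult over P3) of the 13 measured probe sets with 95% intervals from limma, n = 3 arrays per stage, and dashed lines at 2-fold. Cdkn1c lies at -2.45, and the other estimates lie between -1.09 and 1.17.

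RefSeq promoter windows (GRCm38.p6), from 250 bases before to 50 after a transcription start, were found for 8 of the 10 genes. No window was found for Cdkn1c or Rb1, so neither of them was searched. The windows were searched on both strands for letters that retinoblastoma complexes are known to act through. The E2F letters (TTTCCCGC, TTTCGCGC, TTTGCCGC or TTTGGCGC) stood in 2.26% of all windows and the CHR letters of MuvB complexes (TTTGAA) in 17.9%. The windows of Rbl1 and Rbl2 are shown as those of the retinoblastoma genes found, beside the Cdkn2a window with an E2F match. Each match is in capitals. Of the 11 windows of the 8 genes 2 held the E2F letters (Rbl1 and Cdkn2a) and 2 the CHR letters (Rbl2 and Cdkn2b). The CHR share was close to that of all windows. A search for p53 half-sites found them in 2 of the 11 windows (Cdkn1a and Cdkn2d) and in 8.36% of all windows. In Rbl1 (chr2:157204485-157204784, minus strand) the match was an E2F motif, and in Rbl2 (chr8:91069807-91070106, plus strand) a CHR on the other strand. In the upstream of the Cdkn2a windows (chr4:89294570-89294869, minus strand) it was an E2F motif. The other Cdkn2a window (chr4:89282143-89282442) held neither set of letters. The windows were not assigned to p16Ink4a or p19Arf. A match is a description of the sequence and was not tied to the signals.
Rbl1: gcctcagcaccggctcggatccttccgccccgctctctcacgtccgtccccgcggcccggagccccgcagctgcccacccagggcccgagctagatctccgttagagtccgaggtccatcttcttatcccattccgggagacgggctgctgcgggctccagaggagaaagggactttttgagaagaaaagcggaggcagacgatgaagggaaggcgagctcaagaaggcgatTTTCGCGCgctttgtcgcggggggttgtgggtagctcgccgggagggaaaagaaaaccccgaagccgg
Rbl2: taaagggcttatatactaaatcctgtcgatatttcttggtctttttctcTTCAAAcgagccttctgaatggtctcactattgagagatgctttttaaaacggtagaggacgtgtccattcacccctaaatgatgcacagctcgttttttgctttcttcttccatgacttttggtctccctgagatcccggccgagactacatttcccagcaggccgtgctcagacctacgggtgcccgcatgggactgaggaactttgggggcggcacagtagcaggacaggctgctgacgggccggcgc
Cdkn2a: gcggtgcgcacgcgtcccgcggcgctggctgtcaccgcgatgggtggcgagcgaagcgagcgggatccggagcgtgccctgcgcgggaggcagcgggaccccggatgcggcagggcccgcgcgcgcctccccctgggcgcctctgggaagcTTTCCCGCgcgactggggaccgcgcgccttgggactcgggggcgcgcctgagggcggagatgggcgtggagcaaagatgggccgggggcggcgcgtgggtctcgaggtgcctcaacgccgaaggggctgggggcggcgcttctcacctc

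The partners of the inhibitors were read from lists of cell cycle genes, each gene by its brightest measured probe set. Of all 13743 genes measured 5.49% were called with more signal at P3 and 4.53% with more in the adult, and the median log2 change was -0.04. The 12 G1 cyclins and their kinases were all measured, and 5 were called, each with more signal at P3 (7 at an unadjusted p under 0.05), with a median change of -0.99. Ccnd1, which encodes cyclin D1, gave 860, 762 and 782 at P3 and 90.9, 120 and 105 in the adult, a log2 change of -2.94 (SE 0.21, adjusted p = 0.000499). The log2 changes of the INK4 targets were -2.10 for Cdk6 and -1.71 for Cdk4. Ccnd2, the gene of cyclin D2, had a change of -1.55 and Cdk2, the Cip/Kip target, one of -1.33, and Cdk2 is named here after its values were seen. Only 3 of the 5 were called without P3 replicate 3 and only 1, Ccnd1, without adult replicate 3.

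**Figure D4:**
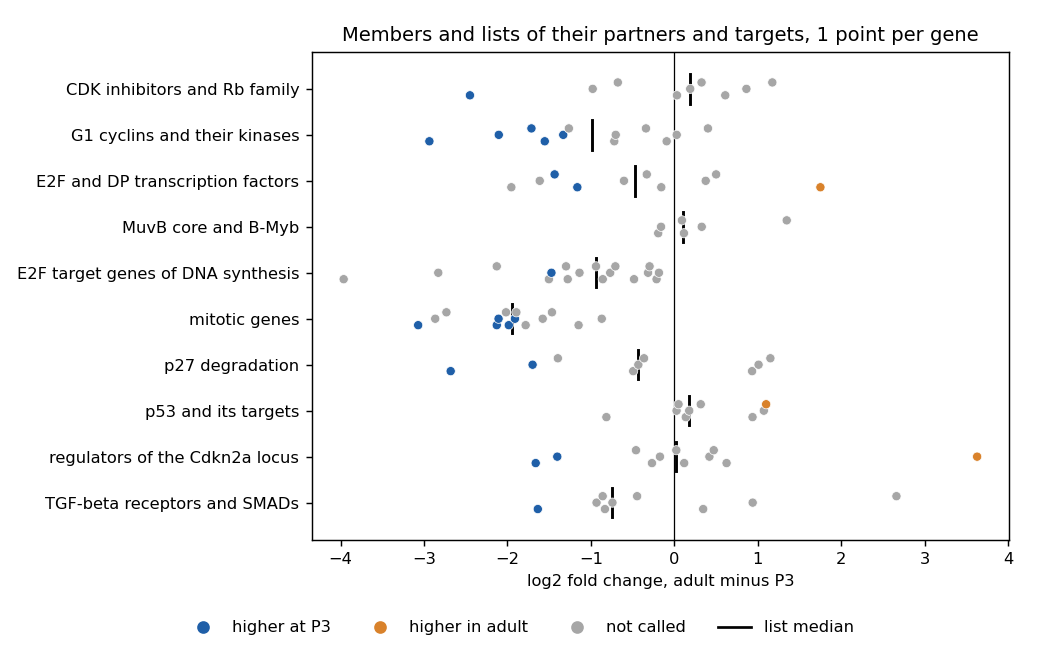
Log2 changes (adult over P3) of the measured CDK inhibitor and retinoblastoma genes and of each cell cycle list, each gene by its brightest probe set. Points are genes, coloured where called, and vertical bars are list medians, for example -0.99 for the G1 cyclins and their kinases and -1.95 for the mitotic genes.

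The E2F and DP transcription factors, the partners that retinoblastoma proteins hold, were called in both directions. Of 10 genes 2 had more signal at P3, Tfdp1 (log2 change -1.44, adjusted p = 0.00965) and E2f3 (-1.16, adjusted p = 0.0434), and 1 was higher in the adult, the DP factor Tfdp2 (1.75, adjusted p = 0.0367). The DP genes thus moved in opposite directions, with Tfdp1 at 434 to 487 at P3 and 146 to 216 in the adult, and Tfdp2 at 84.9 to 177 and 254 to 666. With an array left out E2f3 kept its call in 1 of the 6 fits (without P3 replicate 1), Tfdp2 in 1 (without adult replicate 1) and Tfdp1 in all but that without adult replicate 3. Of 6 genes of the MuvB core and B-Myb none was called by limma, and none had an unadjusted p under 0.05.

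The genes that these complexes silence were called in part. Of 14 measured mitotic genes 5 passed the test, all toward P3, and 12 had an unadjusted p under 0.05 with higher P3 signals. The median change was -1.95. The log2 change was -3.07 for Bub1, a kinase of the spindle checkpoint, and -2.13 for Cdk1, the kinase of mitotic entry. It was -2.11 for Cenpf, a kinetochore protein, and -1.98 for Cdc20, an activator of the anaphase-promoting complex. Bub1 had adult signals of 3.73, 17.8 and 5.21, above background on only 1 adult array, so the size of its change is uncertain (SE 0.67). Of 17 measured genes of DNA synthesis only Mcm6, a subunit of the replicative helicase, was called (log2 change -1.47, adjusted p = 0.0490), with 11 at an unadjusted p under 0.05 and a median of -0.94. The counts depended on single arrays. They were 7 and 6 when adult replicate 2 was left out, 0 and 0 when either P3 replicate 3 or adult replicate 3 was, 1 and 0 for P3 replicate 2 or adult replicate 1, and 4 and 1 for P3 replicate 1. Adult replicate 2 had the highest adult sum of the mitotic genes, 794 against 357 and 270.3, and also the highest granulocyte sum, 17190 against 8132 and 3833. The part of the blood cells in these values was not tested.

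The genes that act on the inhibitors themselves were examined next. Of 9 genes that degrade p27, 2 were called, both toward P3. Skp2, the F-box protein that recognises p27, fell by 1.70 (adjusted p = 0.0303), and Cks1b, its cofactor, gave 1990, 1209 and 1125 at P3 and 191, 327 and 164 in the adult, a log2 change of -2.68 (SE 0.33, adjusted p = 0.00345). Cks1b was called with every array left out in turn, whereas Skp2 lost its call in 5 of the 6 fits and kept it without P3 replicate 1. The median of the list was -0.43.

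Of the list of p53 and its targets 9 of 12 genes were measured, and Trp53, the gene of p53 itself, was not among them. Of the 9, 1 was called, Trp53inp1, a p53 target, higher in the adult (log2 change 1.10, adjusted p = 0.0199). Of the 6 fits with an array left out Trp53inp1 was called in 2, those that omitted P3 replicate 1 and adult replicate 1. Of 11 regulators of the Cdkn2a locus, mostly Polycomb proteins, 2 were called toward P3 and 1 toward the adult. The histone methyltransferase Ezh2 had a log2 change of -1.66 and the ubiquitin ligase Rnf2 one of -1.40, while Cbx7, a reader of the Polycomb mark, gave 43.7, 2.34 and 10.1 at P3 and 155, 86.9 and 146 in the adult (log2 change 3.63, SE 0.92, adjusted p = 0.0491). The call of Cbx7 was lost in 5 of the 6 fits with an array left out. It held without P3 replicate 1 (log2 change 4.69), and the change was 2.58 without P3 replicate 2. The signal of Cbx7 on P3 replicate 2 lay below that array's background level of 9.16. Cdkn2a itself was below background at both stages. None of the calls of this list held without P3 replicate 3 or adult replicate 3. Of 9 TGF-beta receptors, ligands and SMADs 1 was called, the ligand gene Tgfb2, which fell by 1.64 (adjusted p = 0.00696), and it was called with every array left out in turn.

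The neighbourhood of Cdkn1c, an imprinted region, was read after the values of Cdkn1c had been seen. Of the 16 nearest genes, 8 on each side, 12 were measured and none was called by limma, with log2 changes from -3.41 to 0.80. Of all measured genes 5.49% were called toward P3 and 4.53% toward the adult. An unadjusted p under 0.05 was found for 2 neighbours, R74862 (log2 change -1.30) and Trpm5 (-3.41), both with more signal at P3. Of all measured probe sets 23.7% had such a p. The signals of Trpm5 on adult replicates 2 and 3 (1.03 and 5.57) lay below background, so the size of its change is uncertain. Slc22a18, a transporter gene and the next gene on one side, gave 47.1, 33.8 and 39.6 at P3 and 24.6, 17.5 and 30.1 in the adult, with a log2 change of -0.76 (adjusted p = 0.312). Kcnq1ot1, the nearest measured gene on the other side, gave 58.6, 71.8 and 54.0 at P3 and 51.2, 44.4 and 157 in the adult. Its log2 change was 0.22 (limma adjusted p = 0.828). Kcnq1, a potassium channel gene and the next on that side, gave 244, 85.7 and 120 at P3 and 91.5, 211 and 395 in the adult. The log2 change of Kcnq1 was 0.54 (adjusted p = 0.609). Cdkn1c, around which the stretch was chosen, was its one called gene. Among only 12 neighbours, the absence of calls was close to the shares of all genes.

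**Figure D5:**
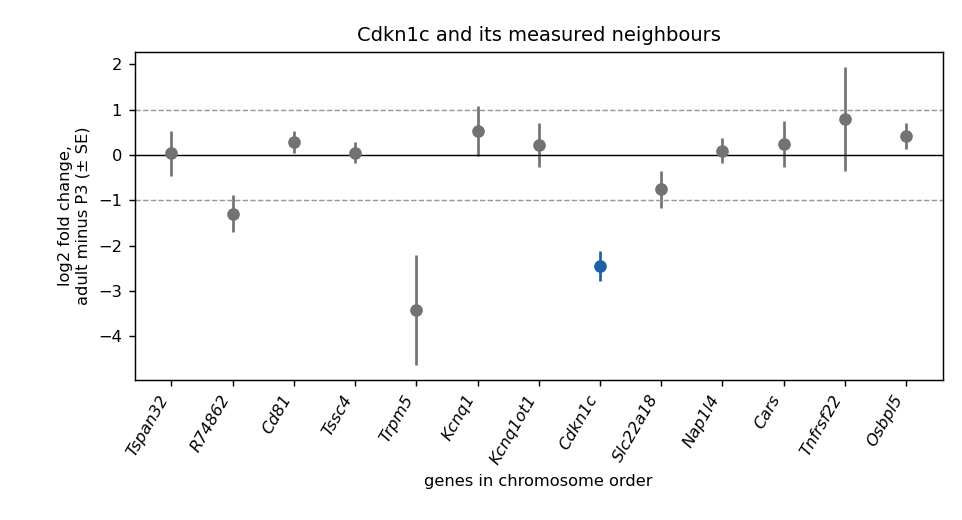
Log2 changes (adult over P3) of Cdkn1c and of the 12 measured genes among the 16 nearest, in their order along the chromosome (evenly spaced, bars of 1 SE, dashed lines at 2-fold). Cdkn1c at -2.45 is the called gene. Trpm5 at -3.41 was not called, varied widely between arrays and lay below background on adult replicates 2 and 3.

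Across the 6 arrays the log2 signals most like those of Cdkn1c belonged to Ercc3 (Pearson's r = 0.997), Phf14 (0.996) and Tmem17 (0.996). These are descriptions over 6 arrays that fall into 2 stages. Phf14 was called higher at P3 (log2 change -1.18, adjusted p = 0.0171), as was Tmem17 (-1.44, adjusted p = 0.0426), while Ercc3 was not (-0.73, adjusted p = 0.108).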

How the data were processed

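RNA of 6 pools of CSE, 3 per stage, was hybridized by the authors to Affymetrix arrays of 45101 probe sets (64 controls). The deposited values are linear signal intensities of the MAS5.0 algorithm, which the authors computed with GCOS and Expression Console (GCOS is version 1.2 in the submitters' processing notes, and the methods give another version) and scaled to a 2% trimmed mean of 100 on each array. They were used as deposited. The deposited intensities were taken to log2, and the stages were compared with limma 3.58.1 in R 4.3.3 (lmFit, eBayes with an intensity trend, all 6 arrays, stage as the only factor). An annotation of 2016 gave 1 gene for 34945 probe sets, several for 932 and none for 9160. MAS5.0 sets each array's mean equal, so changes are relative to the other transcripts of an array, and low signals carry large errors on the log2 scale.

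Probe sets above the background level on at least 3 of 6 arrays were kept, 29036 in all. Called means a Benjamini-Hochberg adjusted p under 0.05 and at least 2-fold. With 3 arrays a stage, an exact permutation test has a smallest p of 0.1. The pools held different mice, 60 per stage. Precision is limited by the number of arrays.

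The members and lists were chosen with earlier results of these data known. Of 189 list entries 177 matched the annotation and 172 were measured. Named were the 10 members, in each list up to 4 called genes of largest change and any called the other way, markers that define a cell type, and the 3 genes most like Cdkn1c over the arrays. The promoter letters and the neighbours were added after values were seen. The 14 alternatives were quantile and median scaling, other filters, floored or raised signals, no trend, the replicate block and each array left out. The mean over the probe sets of a gene was a further fit, not counted among them. The procedure was tested on simulated data.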

Additional observations from a re-analysis of the deposited data

How the results depend on the processing

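Cdkn1c was the only gene of the 10 called in each of the 14 alternatives, and no other member was called in any. No called value changed direction. Over all measured probe sets 2109 were called, 899 without the intensity trend, and between 576 and 2839 with single arrays left out. With single arrays left out the called genes ranged from 1 to 5 for the G1 cyclins and kinases, 0 to 2 for the E2F and DP factors, 0 to 6 for DNA synthesis, 0 to 7 for the mitotic genes, 1 to 2 for p27 degradation, 0 to 1 for the p53 list, 0 to 4 for the regulators of Cdkn2a and 1 to 2 for TGF-beta. Averaging all probe sets of a gene left 1 called E2F or DP factor. Deviations of same-numbered arrays correlated with r of 0.182, 0.213 and 0.0762, and those of unlike-numbered arrays with r from -0.197 to 0.0543. The labels give no pairing beyond the shared number, and what that number stands for was not tested. With the replicate number as a block 2649 probe sets were called. Weak signals, those of Cdkn2a and Cdkn2b above all, limit what the arrays can show.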
